A study of Mus musculus with 9 samples.

Results

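The genes described here encode 8 enzymes of NADPH supply: G6pdx, Pgls, Pgd, Taldo1 and Tkt of the pentose phosphate pathway, the malic enzyme gene Me1, and the isocitrate dehydrogenase genes Idh1 and Idh2. They were chosen by gene symbol, without reference to a level or a change in these libraries, although earlier results from the same libraries were known. All 8 were found among the 56691 genes of the table, each in 1 row, and all 8 passed the filter on low counts that left 14151 genes for testing. RNA was sequenced in 3 groups of 3 libraries from NIH/3T3, an immortalised line of fibroblasts from mouse embryos that the labels call wild type. Control cells carry no stated treatment. Cells of the UVA group, titled MOCK in the sample names, received UVA at 10 J/cm2. Cells of the third group, called co-treated here, received UVA at that dose together with alpha-arbutin, a glucoside of hydroquinone. The question of the study is photodamage and its relief by alpha-arbutin. No group received alpha-arbutin without UVA, the labels give neither its dose nor the time of harvest, and they do not say whether libraries of a group came from separate cultures, so p-values measure only the spread between these libraries.

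NADPH is the reductant that glutathione reductase and thioredoxin reductase draw on to clear peroxides, and that fatty acid and sterol synthesis consume. In the oxidative branch of the pentose phosphate pathway, glucose 6-phosphate dehydrogenase (G6pdx) and 6-phosphogluconate dehydrogenase (Pgd) each make NADPH, with the lactonase Pgls acting between them. Transketolase (Tkt) and transaldolase (Taldo1) make no NADPH themselves: they exchange sugar phosphates between the pathway and glycolysis. Malic enzyme 1 (Me1) and isocitrate dehydrogenase 1 (Idh1) make NADPH in the cytosol, and isocitrate dehydrogenase 2 (Idh2) makes it in mitochondria.

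The promoter windows are shown because several of these enzymes are known in other systems as targets of NRF2, a transcription factor of the oxidative stress response that binds the antioxidant response element. RefSeq windows on GRCm38.p6, from 250 bases before to 50 bases after an annotated start, were found for 8 of 8 genes, with 11 windows in all because Pgd, Me1 and Idh1 have 2 each. The core of the element, TGACNNNGC, was searched on both strands. It occurred in 3 of the 11 windows, and in 12.4% of 32851 windows of all genes. The match in G6pdx lies at -57 to -49 from the start on the strand opposite to the gene, that in Me1 at -6 to 3, and that in Pgd at 4 to 12 of the window that begins farther downstream. The other window of Pgd, which begins farther upstream, and the other window of Me1 held no match. The Pgd match lies past an annotated start that directly follows a run of t and the letters cag, as at the start of an internal exon. Whether that window acts as a promoter was not tested, so its match may lie in transcribed exon sequence only. A match is a description of letters and not a site shown to be bound. The windows below run 5′ to 3′ on the strand of each gene. They are G6pdx at chrX:74428831-74429130, Me1 at chr9:86695865-86696164 and Pgd at chr4:149166033-149166332, all on the minus strand, with the matching letters in capitals. They are followed by windows without a match for Tkt at chr14:30548881-30549180 on the plus strand and for Idh2 at chr7:80115301-80115600 on the minus strand, one gene that rose after UVA and one that fell.
G6pdx: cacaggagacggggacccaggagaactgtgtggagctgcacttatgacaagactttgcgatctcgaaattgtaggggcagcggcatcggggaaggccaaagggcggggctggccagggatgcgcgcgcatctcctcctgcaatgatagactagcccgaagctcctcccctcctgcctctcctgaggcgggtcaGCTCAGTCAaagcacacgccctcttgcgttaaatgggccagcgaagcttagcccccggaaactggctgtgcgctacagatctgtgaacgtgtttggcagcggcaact
Me1: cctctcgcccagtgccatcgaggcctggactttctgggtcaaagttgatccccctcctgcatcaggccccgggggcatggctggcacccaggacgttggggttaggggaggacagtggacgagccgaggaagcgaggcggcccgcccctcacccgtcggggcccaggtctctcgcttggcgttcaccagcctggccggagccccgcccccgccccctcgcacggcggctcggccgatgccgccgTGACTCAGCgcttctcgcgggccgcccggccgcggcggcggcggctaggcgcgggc
Pgd: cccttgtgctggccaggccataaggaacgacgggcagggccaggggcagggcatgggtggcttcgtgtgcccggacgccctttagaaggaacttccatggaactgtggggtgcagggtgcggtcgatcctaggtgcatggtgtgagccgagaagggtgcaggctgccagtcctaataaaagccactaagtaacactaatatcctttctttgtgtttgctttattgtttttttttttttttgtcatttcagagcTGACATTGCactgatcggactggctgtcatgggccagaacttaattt
Tkt: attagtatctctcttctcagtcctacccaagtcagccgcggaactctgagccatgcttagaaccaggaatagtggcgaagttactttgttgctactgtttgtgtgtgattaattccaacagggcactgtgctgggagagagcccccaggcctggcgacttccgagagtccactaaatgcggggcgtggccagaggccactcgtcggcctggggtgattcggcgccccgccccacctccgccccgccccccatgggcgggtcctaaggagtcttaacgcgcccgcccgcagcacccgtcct
Idh2: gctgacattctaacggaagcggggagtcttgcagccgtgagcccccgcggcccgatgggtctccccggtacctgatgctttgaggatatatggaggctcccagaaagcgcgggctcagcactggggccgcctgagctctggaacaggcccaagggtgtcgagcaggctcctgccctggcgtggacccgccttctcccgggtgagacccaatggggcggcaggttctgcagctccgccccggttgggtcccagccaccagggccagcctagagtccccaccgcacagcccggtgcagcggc

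Libraries held from 16.3 to 20.86 counts in units of 1e6, and each of the 8 genes had between 563 and 6145 counts in every library. All 10 listed fibroblast markers were detected, with a summed level of 11575 to 11935 counts per 1e6 library counts (CPM) in control, 9042 to 9216 in UVA and 8728 to 9211 in co-treated libraries. Adipocyte markers summed to 31.5 to 33.5 CPM in control, 14.0 to 17.2 in UVA and 15.7 to 18.6 in co-treated libraries; Cidec was at 0 counts in the control and co-treated groups, Plin1 in the UVA group and Adipoq in the co-treated group. Immune, epithelial, endothelial and muscle markers summed to at most 9.93 CPM in any library, with Cd3e, Krt5, Epcam and Myod1 at 0 in all groups. Mitochondrially encoded genes held 3.52 to 3.72% of counts in control, 3.87 to 3.89% in UVA and 3.76 to 4.01% in co-treated libraries. The part of these shifts in the results that follow was not tested, and in bulk RNA fewer cells of a type and less RNA per cell cannot be told apart.

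Levels between genes are compared as FPKM, the count per kilobase of exon, scaled to the library total. The order therefore depends on the deposited exonic lengths, which were 7355 bases for Tkt, 6447 for Pgd, 3770 for Pgls and 2171 for Taldo1. In CPM, without division by length, Tkt at 239 and Pgd at 209 stood above Taldo1 at 159 in control cells. Whether these lengths match the transcripts made in these cells was not tested. Idh2 stood highest in control cells, at 113 ± 3.18 FPKM (SD, n = 3). Idh1 at 75.1 ± 3.08, G6pdx at 73.6 ± 4.72 and Taldo1 at 73.5 ± 3.27 followed, with overlapping libraries. Tkt at 32.6 ± 0.908 and Pgd at 32.6 ± 1.19 also overlapped each other, Me1 lay at 25.9 ± 0.856, and Pgls was lowest at 9.84 ± 0.821. After UVA the order at the top changed: Idh2 at 93.1 ± 3.37 was followed by Taldo1 at 81.5 ± 7.49, G6pdx at 68.4 ± 1.39 and Idh1 at 58.4 ± 3.74, with no overlap between neighbours in that order. In co-treated cells the same order held down to Idh1, and Pgd, at 41.2 ± 0.866, stood above Tkt, at 37.2 ± 0.617, without overlap. The 8 genes together summed to 424 to 445 FPKM in control, 405 to 421 in UVA and 424 to 441 in co-treated libraries. In FPKM the sum was thus lower in each UVA library than in any control or co-treated library, and its make-up differed. With the library scaling used for the tests (TMM), the sums of UVA libraries overlapped those of both other groups. Idh1 and Idh2 together were at 188 to 190 FPKM in control and 145 to 159 in UVA libraries, while the 5 pentose phosphate genes together were at 211 to 231 FPKM in control and 227 to 247 in UVA libraries, which overlapped.

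**Figure D1:**
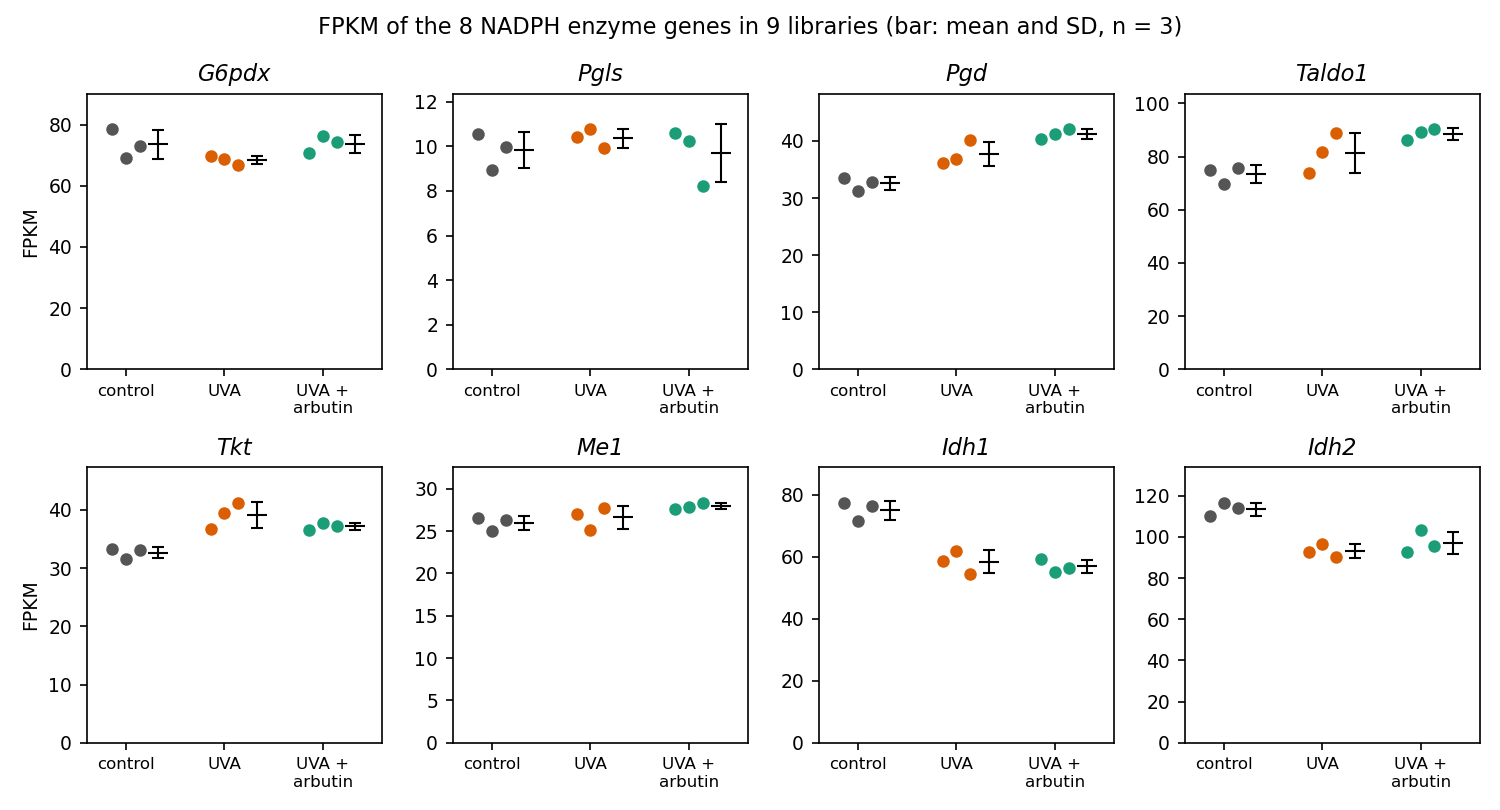
Deposited FPKM (y axis, from 0, scaled per gene) of each of the 8 genes in the 3 control, 3 UVA and 3 co-treated libraries; points are libraries in replicate order and the bar beside them is the mean with its SD. Pgd and Tkt stand above and Idh1 and Idh2 below all control libraries in both irradiated groups, while Pgls overlaps between all groups.

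UVA was compared with control to ask how irradiated cells without alpha-arbutin differed. Pgd, Taldo1 and Tkt rose, by 12.0 to 21.3%, and Idh1 and Idh2 fell, by 21.5 and 17.1%. G6pdx, which encodes the enzyme of the first and rate-limiting step of the pathway, Pgls and Me1 did not pass. So 3 of 8 genes were higher and 2 lower at an adjusted p below 0.05 over all tested genes (edgeR quasi-likelihood test, Benjamini-Hochberg), against 14.7% of all tested genes higher and 14.6% lower (29.3% in either direction). At an unadjusted p under 0.05 there were 5 of 8, against 38.9% of all, and libraries did not overlap for 4 of 8, against 42% of all. The median log2 fold change was 0.07 over the 8 genes and 0.00 over all tested genes.

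In the oxidative branch, G6pdx (ENSMUSG00000031400, chromosome X, 73453089 to 73472800 on mm39) stood at 78.4, 69.0 and 73.2 FPKM in the control libraries and at 69.7, 68.7 and 66.9 in the UVA libraries. In FPKM all UVA libraries but 1 lay below the control range. In TMM-scaled CPM, the scale of the test, only UVA replicate 3 did, at 207 against 211 in control replicate 2. Its log2 fold change was -0.09 ± 0.05 (SE; 95% interval -0.18 to 0.00; adjusted p = 0.151). Without control replicate 2, which was the lowest control library for G6pdx, the value was -0.13 and just passed (adjusted p = 0.0487). The whole of G6pdx is overlapped in the table by Ikbkg on the other strand, which encodes a subunit of the kinase complex of NF-kappaB signalling. Ikbkg had 1114 to 2208 counts per library and rose after UVA with a log2 fold change of 0.60 ± 0.07 (adjusted p = 1.38e-07). Whether the counting separated the strands is not given in the sources used here. The retrogene copy G6pd2 had 0 counts in all 9 libraries. Pgls, the lactonase gene (ENSMUSG00000031807, chromosome 8, 72044820 to 72053736), was at 10.6, 8.95 and 9.99 FPKM in control and 10.4, 10.8 and 9.93 in UVA libraries, which overlapped (log2 fold change 0.09 ± 0.08, 95% interval -0.08 to 0.25, adjusted p = 0.448). It shares 3445 bases of its span with Niban3 on the same strand, which had 66 to 110 counts.

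Pgd, the gene of the branch's other NADPH-making step (ENSMUSG00000028961, chromosome 4, 149234448 to 149251228), was at 33.5, 31.2 and 32.9 FPKM in control and 36.2, 36.8 and 40.2 in UVA libraries. The groups did not overlap. The log2 fold change was 0.23 ± 0.04 (95% interval 0.14 to 0.32; adjusted p = 0.000174), a rise of 17.2%. The call for Pgd held under all 17 alternatives tried, with values from 0.18 to 0.26.

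In the non-oxidative branch, Tkt (ENSMUSG00000021957, chromosome 14, 30270316 to 30296677) was at 33.2, 31.6 and 33.1 FPKM in control and 36.8, 39.5 and 41.2 in UVA libraries. Every UVA library lay above every control library. Its log2 fold change, at 0.28 ± 0.04, was the highest of the 8 genes (95% interval 0.19 to 0.36; adjusted p = 8.30e-06). Taldo1 (ENSMUSG00000025503, chromosome 7, 140972112 to 140982881) was at 75.1, 69.7 and 75.7 FPKM in control and 73.8, 81.8 and 88.7 in UVA libraries, the lowest of which lay inside the control range. Its log2 fold change was 0.16 ± 0.05 (95% interval 0.06 to 0.27; adjusted p = 0.0166). This call ended without control replicate 2 (adjusted p = 0.122), without UVA replicate 3 (0.171) and with limma on log2(FPKM + 1) (0.114).

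Among the genes outside the pathway, Me1 (ENSMUSG00000032418, chromosome 9, 86463424 to 86578006) was at 26.6, 25.0 and 26.3 FPKM in control and 27.1, 25.1 and 27.8 in UVA libraries. The groups overlapped, and the log2 fold change was 0.06 ± 0.05 (95% interval -0.04 to 0.16; adjusted p = 0.434). Idh1, the cytosolic isocitrate dehydrogenase gene (ENSMUSG00000025950, chromosome 1, 65197775 to 65225659), was at 77.4, 71.6 and 76.3 FPKM in control and 58.6, 62.0 and 54.5 in UVA libraries. The groups stood well apart. At -0.35 ± 0.05 on the log2 scale it had the strongest shift among the 8 (95% interval -0.45 to -0.25; adjusted p = 1.74e-06). Idh2, its mitochondrial counterpart (ENSMUSG00000030541, chromosome 7, 79744594 to 79765140), was at 110, 116 and 114 FPKM in control and 92.5, 96.8 and 90.1 in UVA libraries, again without overlap (log2 fold change -0.27 ± 0.04, 95% interval -0.36 to -0.18, adjusted p = 1.97e-05). The calls for Tkt, Idh1 and Idh2 held under the same 17 alternatives.

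**Figure D2:**
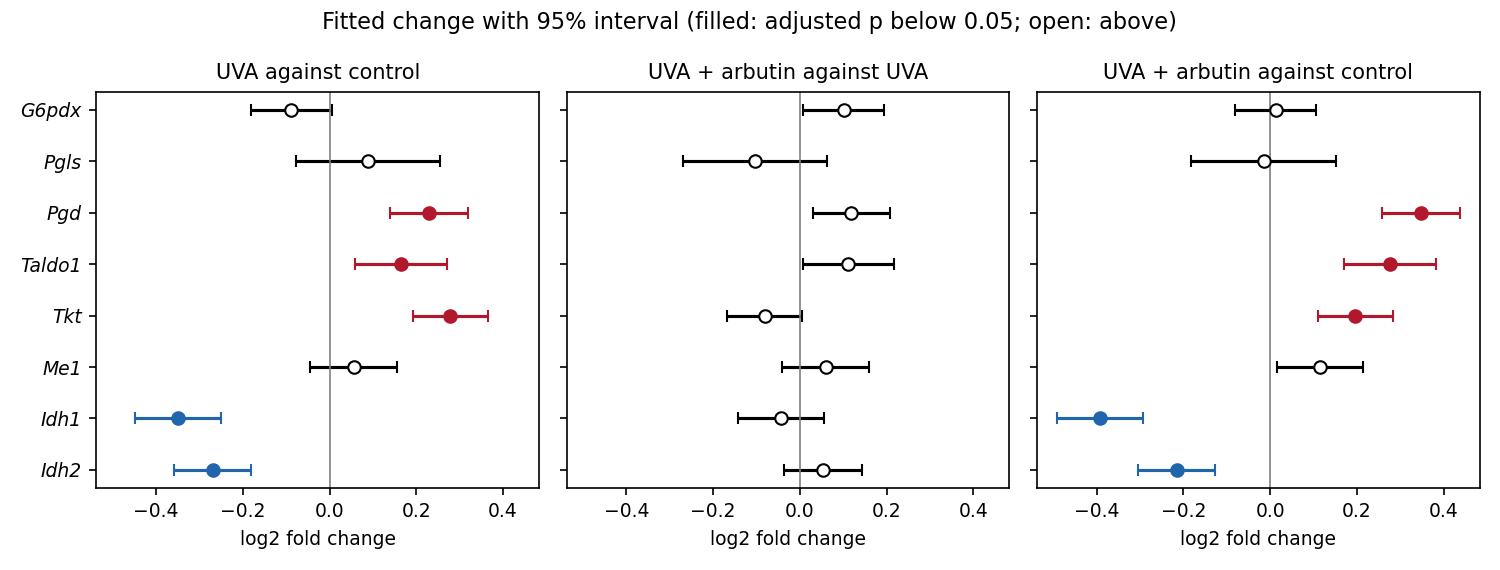
Fitted log2 fold change (x axis) of the 8 genes with its 95% interval in the 3 comparisons, filled red for higher and blue for lower at an adjusted p below 0.05 and open otherwise. Pgd, Taldo1 and Tkt lie above 0 and Idh1 and Idh2 below 0 in both comparisons with control, and none of the 8 genes is filled between co-treated and UVA cells.

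Ratios of FPKM within a library were chosen after the values were seen and are given with no test. They show how transcripts of neighbouring steps moved against each other, and their size depends on the exonic lengths. G6pdx per Pgd was 2.21 to 2.34 in control libraries, 1.67 to 1.92 in UVA libraries and 1.75 to 1.85 in co-treated libraries. The G6pdx transcript was thus lower relative to that of Pgd in both irradiated groups. Against control, Pgd was called higher in both groups and G6pdx was called in neither. Taldo1 per Tkt was 2.21 to 2.29 in control, 2.01 to 2.16 in UVA and 2.36 to 2.42 in co-treated libraries, so that the 3 groups did not overlap. Idh1 per Idh2 overlapped between groups, at 0.615 to 0.703 in control, 0.605 to 0.641 in UVA and 0.533 to 0.639 in co-treated libraries.

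**Figure D3:**
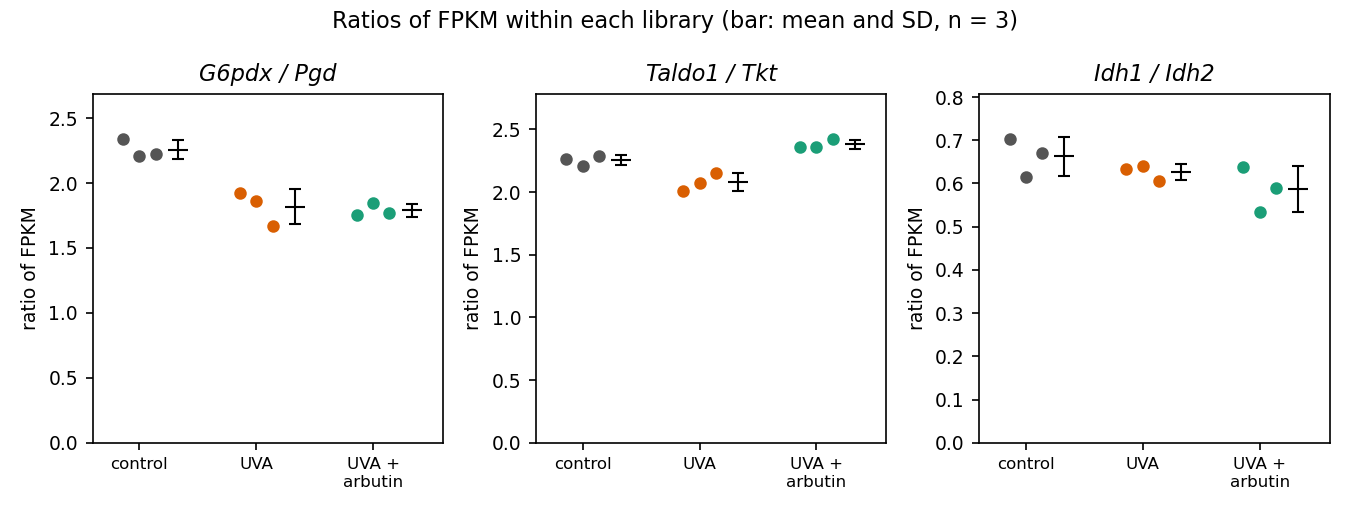
Ratio of FPKM (y axis, from 0) of G6pdx to Pgd, Taldo1 to Tkt and Idh1 to Idh2 in each library by group, with the mean and SD beside the points. The G6pdx to Pgd ratio is 2.21 or more in the control libraries and at most 1.92 in the others, and the Taldo1 to Tkt ratio separates all 3 groups.

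The other genes of NADPH supply were read from lists chosen with earlier results known. Of 11 tested genes in a list of other NADPH sources, NAD kinases and related enzymes, 5 rose and 4 fell after UVA. These counts, and those of the lists that follow, stand beside 14.7% of all tested genes higher and 14.6% lower after UVA. The median log2 fold change was -0.07. Aldh1l2, the mitochondrial formyltetrahydrofolate dehydrogenase, had the smallest p and fell at -0.81 ± 0.05 (adjusted p = 7.22e-13). The malic enzyme gene Me3, named after its value was seen, had the lowest fold change, at -1.03 ± 0.28 (adjusted p = 0.00548), from 18 to 58 counts per library, and did not pass with limma on log2(FPKM + 1). Nadk2, the mitochondrial NAD kinase that makes NADP in that compartment, fell from 137 ± 21.8 to 82.5 ± 8.19 CPM (SD, n = 3), at -0.73 ± 0.08 (adjusted p = 2.49e-08). The cytosolic kinase gene Nadk, named after its value was seen, rose at 0.18 ± 0.04 (adjusted p = 0.00203). Me2, the mitochondrial malic enzyme that mainly uses NAD, rose at 0.28 ± 0.05 (adjusted p = 7.31e-05), and the glutamate dehydrogenase gene Glud1 at 0.19 ± 0.04 (adjusted p = 0.000468). The count of 5 genes higher dropped to 3 without control replicate 1, without control replicate 2 or without UVA replicate 2. Mthfd1l, 1 of these 5 and named after its value was seen, was at 0.13 ± 0.05 (adjusted p = 0.0399). Its call was lost under 11 of 17 alternatives.

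The NAD-linked isocitrate dehydrogenase of the citric acid cycle is made of subunits encoded by Idh3a, Idh3b and Idh3g. Idh3a, the gene of its catalytic subunit, rose from 132 ± 2.81 to 157 ± 6.35 CPM (SD, n = 3), which is 0.25 ± 0.04 on the log2 scale (adjusted p = 6.21e-05). Idh3b and Idh3g, named after their values were seen, did not pass, at 0.04 ± 0.05 (adjusted p = 0.564) and 0.05 ± 0.05 (adjusted p = 0.488). Of 11 tested genes of the citrate and malate steps, 2 rose and 1 fell, with a median of 0.04, against 29.3% of all tested genes in either direction. The count of 1 lower ran from 0 to 2 over the alternatives. The other rise was in the cytosolic malate dehydrogenase gene Mdh1 at 0.16 ± 0.04 (adjusted p = 0.00482). The fall was in the citrate carrier gene Slc25a1 at -0.18 ± 0.05 (adjusted p = 0.00897), and it missed the threshold when control replicate 3 was left out (adjusted p = 0.0822). Citrate synthase, Cs, was at -0.08 ± 0.03 (adjusted p = 0.0772).

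Among 10 genes of upper glycolysis, 4 fell and 1 rose after UVA, with a median of -0.05. The list holds genes that act in the supply of glucose 6-phosphate as well as genes of its use in glycolysis, which competes with G6pdx. Pfkl and Pfkp, which encode phosphofructokinase subunits, fell at -0.68 ± 0.05 (adjusted p = 3.78e-11) and -0.55 ± 0.08 (adjusted p = 6.08e-06). Pfkfb3, which makes an activator of phosphofructokinase, rose at 0.61 ± 0.09 (adjusted p = 1.09e-05). The glucose transporter gene Slc2a1, on the supply side, fell at -0.23 ± 0.06 (adjusted p = 0.00415). Leaving out control replicate 3 ended that call (adjusted p = 0.0612). Of 10 tested genes for other sugar phosphate and ribose steps, 0 rose and 2 fell, against 3 at an unadjusted p under 0.05, and the median was -0.01. They were H6pd, the glucose 6-phosphate dehydrogenase of the endoplasmic reticulum, at -0.29 ± 0.06 (adjusted p = 0.000531), and the phosphopentomutase gene Pgm2 at -0.20 ± 0.06 (adjusted p = 0.01). Rpe, the ribulose phosphate epimerase, and Tktl1, a transketolase-like gene at under 1 CPM, were at -0.15 ± 0.07 (adjusted p = 0.118) and 1.00 ± 0.51 (adjusted p = 0.148).

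**Figure D4:**
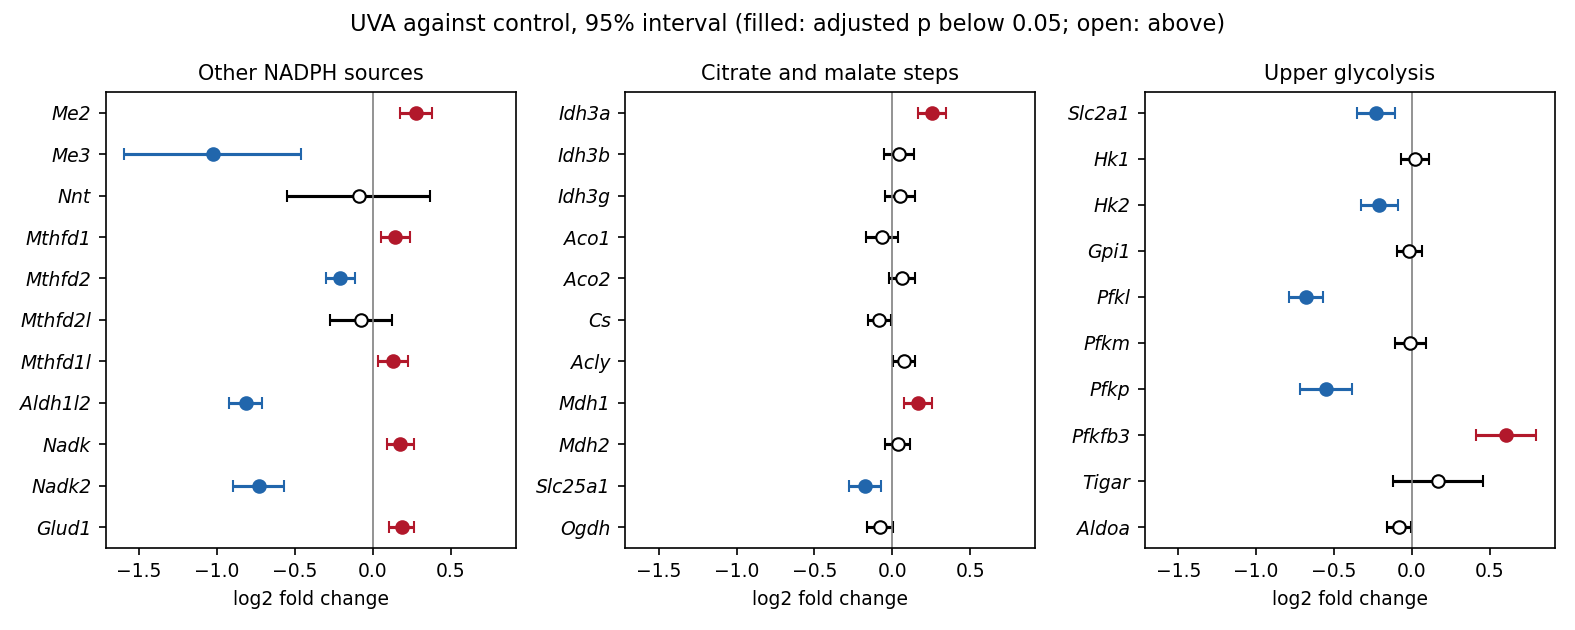
Log2 fold change of UVA against control (x axis) with its 95% interval for tested genes of 3 lists, filled red for higher and blue for lower at an adjusted p below 0.05 and open otherwise. Me3, Aldh1l2, Nadk2, Pfkl and Pfkp lie at or below -0.55, and Me3, with few counts, has the widest interval.

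Of 16 tested genes whose products use NADPH, 7 rose and 3 fell after UVA, with a median of 0.08. Without control replicate 3 the count of 7 dropped to 4. Fasn, fatty acid synthase, had the smallest p of these, at 521 ± 24.3 CPM in control and 905 ± 45.9 in UVA cells (SD, n = 3; log2 fold change 0.79 ± 0.04, adjusted p = 2.31e-14). The mitochondrial thioredoxin reductase gene Txnrd2 rose at 0.36 ± 0.09 (adjusted p = 0.00181), whereas Pycr1 of proline synthesis fell at -1.36 ± 0.10 (adjusted p = 3.15e-11). NRF2 targets outside the 8 genes were split after UVA, with 6 of 14 higher and 5 lower and a median of 0.05. The peroxiredoxin gene Prdx1 was at 0.37 ± 0.04 (adjusted p = 1.02e-07), Sqstm1 at 0.31 ± 0.05 (adjusted p = 3.82e-06), the ferritin gene Fth1 at 0.29 ± 0.05 (adjusted p = 2.49e-05) and the cystine transporter gene Slc7a11 at -0.50 ± 0.08 (adjusted p = 8.04e-06).

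Co-treated cells were compared with UVA cells to ask what alpha-arbutin changed in irradiated cells. None of the 8 genes passed with edgeR, against 0.0353% of all tested genes (0.0283% higher and 0.00707% lower), nor with DESeq2 or limma. At an unadjusted p under 0.05 there were 3 of 8, all higher, against 6.76% of all tested genes, and 2 of 8 did not overlap between groups, against 10.8% of all. Pgd was at 40.3, 41.2 and 42.0 FPKM in co-treated libraries, each above the highest UVA library, and the log2 fold change was 0.12 ± 0.04 (95% interval 0.03 to 0.21; adjusted p = 0.634). G6pdx was at 70.6, 76.2 and 74.5 FPKM, also above every UVA library, at 0.10 ± 0.05 (0.01 to 0.19; adjusted p = 0.702). Taldo1 was at 86.1, 89.1 and 90.2 FPKM, overlapping the highest UVA library, at 0.11 ± 0.05 (0.01 to 0.22; adjusted p = 0.715).

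The other 5 genes overlapped between co-treated and UVA libraries. Tkt, at 36.5, 37.7 and 37.2 FPKM, had a log2 fold change of -0.08 ± 0.04 (95% interval -0.17 to 0.00), and Me1, at 27.6, 27.9 and 28.3 FPKM, one of 0.06 ± 0.05 (-0.04 to 0.16). Idh1, at 59.3, 55.0 and 56.3 FPKM, was at -0.04 ± 0.05 (-0.14 to 0.06), and Idh2, at 92.8, 103 and 95.3 FPKM, at 0.05 ± 0.04 (-0.04 to 0.14). Both isocitrate dehydrogenase genes thus remained below every control library. Pgls, at 10.6, 10.3 and 8.23 FPKM, was at -0.10 ± 0.08 (-0.27 to 0.06). For these 5 genes the adjusted p lay between 0.764 and 0.905, and the intervals allow changes of up to about 17.1% down for Pgls and 11.7% up for Me1. Of the lists, 3 of 14 NRF2 targets rose in this comparison, with a median of 0.22, and at an unadjusted p under 0.05 there were 12 of 14. The count of 3 was 7 without UVA replicate 3 and with no filter on low counts, 6 with a replicate block, 1 without UVA replicate 1, co-treated replicate 2 or co-treated replicate 3, and 0 with limma. Slc7a11 was at 0.55 ± 0.08 (adjusted p = 0.00102), Hmox1, haem oxygenase 1, at 0.46 ± 0.08 (adjusted p = 0.0153) and Slc48a1, which encodes a haem transporter, at 0.27 ± 0.04 (adjusted p = 0.00684). None of these 3 passed with limma on log2(FPKM + 1), and Hmox1 and Slc48a1 did not pass without UVA replicate 1, without co-treated replicate 2 or without co-treated replicate 3. Of the NADPH users, Txnrd1, the cytosolic thioredoxin reductase gene, was the only gene to pass, at 0.25 ± 0.04 (adjusted p = 0.00327), and it did not pass with limma or without co-treated replicate 2. With DESeq2, no filter on low counts, a replicate block or without UVA replicate 3, 2 genes of that list passed.

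Co-treated cells were also compared with control cells. This comparison shares its control libraries with that of UVA against control, so the values are set side by side and are not independent. The same 5 genes were called: Pgd, Taldo1 and Tkt higher and Idh1 and Idh2 lower, against 13% of all tested genes higher and 12.9% lower (25.8% in either direction). At an unadjusted p under 0.05 there were 6 of 8, against 35.8% of all, and libraries did not overlap for 6 of 8, against 39.7% of all. Pgd was at 0.35 ± 0.04 (adjusted p = 4.25e-07), a rise of 27.2%, beside 17.2% in UVA cells. Taldo1 was at 0.28 ± 0.05 (adjusted p = 0.000164), now without overlap with control, and its call held under all 17 alternatives. Tkt was at 0.20 ± 0.04 (adjusted p = 0.000788). Idh1 was at -0.39 ± 0.05 (adjusted p = 2.85e-07), a fall to 0.762 of the control level, and Idh2 at -0.22 ± 0.04 (adjusted p = 0.000384). Me1 stood above every control library in co-treated cells but did not pass, at 0.11 ± 0.05 (95% interval 0.01 to 0.21; adjusted p = 0.0861). G6pdx and Pgls were at 0.01 ± 0.05 (-0.08 to 0.11; adjusted p = 0.874) and -0.01 ± 0.08 (-0.18 to 0.15; adjusted p = 0.922). Of the 14 NRF2 targets, 10 were higher and 0 lower than in control cells, with a median of 0.25; at an unadjusted p under 0.05 there were also 10, and DESeq2 and limma called 0 lower.

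The genes whose levels followed each enzyme gene most closely over the 9 libraries were taken from 8843 genes with a mean of at least 10 CPM. The coefficients describe these libraries only, which share group means and sequencing depth, and carry no p. Pgd went most closely with the ferritin heavy chain gene Fth1 (Pearson r = 0.990) and the basement membrane collagen gene Col4a2 (0.987), and Taldo1 with Aebp1 (0.98) and Pqlc3 (0.97). Tkt went with the cyclophilin gene Ppia (0.987) and Slc25a22, a mitochondrial glutamate carrier gene (0.984). Idh1 went with Yars, tyrosyl-tRNA synthetase (0.987), and the growth arrest gene Gas1 (0.986), and Idh2 with Ttc21b (0.991) and Egln3, a prolyl hydroxylase of the hypoxia pathway (0.981). For the genes that passed in neither comparison with control, the closest coefficients were lower: G6pdx with Poll (0.912) and Myl6b (0.883), Pgls with Ift46 (0.884) and Pygo2 (0.883), and Me1 with Prkca (0.959) and Dnajb11 (0.948).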

How the data were processed

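Per the file headers, the authors deposited 1 table with a raw count and an FPKM value per Ensembl gene and library, beside coordinates and exon lengths. Tools listed in the submitters' processing notes are HISAT2 2.2.1, HTSeq 0.6.1, cutadapt 1.9.1, bcl2fastq 2.20.0.422 and mm39, with no roles; strandedness and annotation release are not given there. The deposited FPKM equals count over exonic size and total count (510219 of 510219 values within 0.01). Control columns carry the prefix NC and were taken as the control samples, since MOCK and AA prefixes match the remaining titles. Genes without a symbol (2639) held at most 0.118% of counts and were kept.

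Counts were tested with edgeR 4.0.16 in R 4.3.3 (filterByExpr, TMM, quasi-likelihood F-test, two-sided; all 9 libraries, group alone), after a check on simulated data. Adjusted p-values are Benjamini-Hochberg over 14151 genes, called below 0.05. CPM is TMM-scaled. Standard errors come from the F statistic. limma 3.58.1 and DESeq2 1.42.0 served as alternatives. Replicates differed beyond counting noise (chi-square per degree of freedom 2.29 to 5.18). The members and lists were chosen with earlier results of these data known. Genes named are the 8 members, up to 4 genes per list with the smallest p after UVA, and for each member the 2 genes with the highest r. For 1 list, 1 gene of that rule is not reported here. Others are marked in the text or are those called between co-treated and UVA cells.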

Additional observations from a re-analysis of the deposited data

How the results depend on the processing

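In each comparison 17 alternatives were run, 9 of them leaving out 1 library. Numbers of the 8 genes called after UVA ran from 2 to 3 higher and from 2 to 3 lower, between co-treated and UVA cells 0 were called in all 17, and between co-treated and control cells 3 higher and 2 lower were called in all 17. All 24 group means of FPKM moved by less than 1 SD with TMM-scaled CPM per kilobase. Over all tested genes, 4 were called higher and 1 lower between co-treated and UVA cells; the numbers were 20 and 9 with no filter on low counts, 11 and 2 with DESeq2, 0 and 0 with limma on log2(FPKM + 1) and on log2(FPKM + 0.1), and 16 and 3 with a replicate block. With 1 library left out they ran from 1 to 14 and from 0 to 8. The cause was not tested. Samples with the same replicate number deviated together weakly at most (r from -0.009 to 0.076, below 0.1 in each pair). Each UVA and co-treated library still correlated best with the one of its own number, so a pairing cannot be decided from these values. The replicate block changed no call among the 8 genes. Uncalled values that changed sign were those of G6pdx against control in co-treated cells (-0.0322 without control replicate 2, -0.0115 without co-treated replicate 2; with 1 library left out from -0.0322 to 0.0589), of Pgls in the same comparison (0.0358 without control replicate 1, 0.091 without co-treated replicate 3; range -0.0828 to 0.091), of Pgls between co-treated and UVA cells (0.0026 without co-treated replicate 3; range -0.1712 to 0.0026) and of Idh1 there (0.0019 without UVA replicate 2; range -0.093 to 0.0019). With 3 libraries a group, the 95% intervals of the 8 genes other than Pgls spanned about 0.2 on the log2 scale. Those of Pgls were wider, from -0.08 to 0.25 after UVA. Some shifts below 0.2 were called with edgeR, such as that of Taldo1 after UVA, at 0.164. Others were not, such as that of Me1 in co-treated against control cells, at 0.1147. The smallest shift that could be called was not tested.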

Other observations

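Control replicate 2 was the lowest control library for 7 of the 8 genes, Idh2 being the exception, and co-treated replicate 1 was the lowest co-treated library for 6 of the 8. Over the 9 libraries, levels of Pgd and Taldo1 had a Pearson r of 0.951 and those of Idh1 and Idh2 one of 0.829, while G6pdx had 0.044 with Pgd. These coefficients are descriptions over libraries that share group means, and carry no p.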
